A study of Mus musculus with 48 samples.

Results

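The livers of 12 male mice on a high-fat (HF) diet were compared, 6 labelled as a hepatocyte knockout of Pparg (M-HF-KO) and 6 controls (M-HF-C), out of 48 livers in the series, 24 of them labelled knockout. The groups were taken from the sample titles. Mice of both groups carried a floxed Pparg gene and ate the HF diet for 34 weeks; after the first 16 weeks the knockout group received AAV8-TBG-Cre and the control group AAV8-TBG-null. These are adeno-associated viruses whose thyroxine-binding globulin promoter directs expression to hepatocytes, so Cre recombinase was added to adult hepatocytes of livers that already had been on the diet, and the other liver cells were not its target. The labels call the condition liver steatosis, give no age beyond adult, and number the mice separately. RNA came from whole liver, so the values below mix hepatocytes with endothelial, stellate, biliary and immune cells, and fewer cells of a type cannot be told apart from less RNA per cell. The question put by the design is how the liver transcriptome on the HF diet changes when Cre is given to hepatocytes with a floxed Pparg gene.

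Pparg encodes PPARγ, a nuclear receptor that binds DNA with an RXR partner and is activated by fatty acids and related ligands. It is best known as the master regulator of fat cells, where its targets take up fatty acids, build triglyceride and coat the lipid droplet. In hepatocytes it is normally low and rises in fatty liver, where it is known to drive droplet and lipid-uptake genes. Its relative PPARα (Ppara) is abundant in hepatocytes and drives fatty acid oxidation through similar DNA elements.

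Libraries held 15569760 to 22072813 reads on genes, and the 25140 genes of the table all had at least 2 reads in total. The first principal component of log2 CPM (read counts scaled to library size) carried 39.2% of the variance and separated the groups, and the second carried 13.2% and set apart labelled-knockout replicates 4 and 6, on opposite sides. The 6 labelled knockouts had 19554 to 19939 genes with a read and the controls 20134 to 20577. Mitochondrial genes took 3.87 to 4.70% of reads in labelled knockouts and 4.47 to 5.07% in controls. Hepatocyte markers were the most abundant of the marker lists, at 114700 to 127800 CPM in sum over 11 genes in labelled knockouts and 79330 to 106500 CPM in controls. Adipocyte markers summed to 36.55 to 58.24 CPM and 60.9 to 83.13 CPM, and 5 of those 10 markers, among them Adipoq, Plin1 and Retn, had no row in this table.

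Pparg itself (ENSMUSG00000000440, GRCm38 chromosome 6, 115360951 to 115490399, plus strand) was not lower in the labelled knockouts. The 6 labelled knockouts stood at 37.2, 43.0, 37.9, 59.5, 43.4 and 17.4 CPM in replicate order, and the 6 controls ranged from 27.0 to 37.0 CPM with a median of 34.4. In 5 labelled knockouts the level was above every control, and in replicate 6 it was below every control. The group means were 39.7 ± 13.6 and 33.2 ± 3.74 CPM (SD, n = 6 each), a log2 difference of 0.26 (SE 0.19, edgeR adjusted p 0.380); a 2-sided exact permutation test of the log2 CPM gave p = 0.526, where 0.00216 is the smallest p that 6 against 6 allow. Without replicate 6 the log2 difference was 0.41 (edgeR adjusted p 0.0189), and without replicate 4 it was 0.11 (edgeR adjusted p 0.709). Of the 12 fits that left out 1 library, 1 called Pparg, the fit without replicate 6. The counts cover the whole gene and do not separate the deleted part from the rest, so the deletion itself could not be read from them; the group is called labelled knockout throughout. Of 18 tested PPAR receptors and partners, 1 rose, the RXR gene Rxra (log2 0.28, SE 0.08, edgeR adjusted p 0.0175), a call that was lost without control replicate 5. Ppara measured 195 ± 52.6 CPM against 250 ± 23.8 in controls (n = 6 each, log2 -0.36, edgeR adjusted p 0.102). Its log2 difference was -0.46 without labelled-knockout replicate 6 (edgeR adjusted p 0.0241) and -0.25 without replicate 4 (edgeR adjusted p 0.154). Ppara too was called in 1 of the 12 fits, the fit without replicate 6.

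Lower genes changed by larger steps than higher genes. Of 14041 genes tested, 2591 were called at an adjusted p under 0.05 (18.5%), 1387 lower (9.88%) and 1204 higher (8.57%) in the labelled knockouts. The counts of list members below stand beside these shares, and a list near them has no more calls than genes at large. At least a doubling or halving, an absolute log2 difference of 1, was seen for 235 lower and 99 higher genes, and an absolute log2 difference of 2 for 45 lower and 9 higher genes. The median size was 0.52 among lower and 0.38 among higher genes on the log2 scale, and the median over all tested genes was 0.0002.

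Genes of the lipid droplet surface fell by large steps. Cidec, Cidea, Plin4 and Clstn3 were lower in every labelled knockout than in any control, and 10 of 17 tested droplet genes fell while 2 rose. For Cidec, Cidea and Plin4 the lack of overlap was required by the rule that named genes by size of change. Cidec (GRCm38 chromosome 6, 113424634 to 113435760, minus strand), which enlarges droplets by moving lipid between them, ranged from 4.31 to 6.21 CPM (median 4.82) in labelled knockouts and from 110 to 153 CPM (median 134) in controls. Its log2 difference was -4.68 (SE 0.11, edgeR adjusted p 1.14e-13). Even the labelled knockout with the lowest Pparg, replicate 6, and that with the highest, replicate 4, were close for Cidec, at 4.38 and 5.76 CPM. Cidea, a related droplet-fusion protein of brown fat, ranged from 0.0626 to 0.499 CPM (median 0.286) against 7.23 to 24.6 CPM (median 22). That log2 difference was -5.99 (SE 0.36, edgeR adjusted p 5.17e-08), and B430212C06Rik, which overlaps Cidea on the other strand, was lower too (log2 -3.42), a pair whose reads these unstranded libraries cannot separate where they overlap.

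Plin4 (chromosome 17, 56100591 to 56109803, minus strand), a droplet-coating perilipin of fat cells, ranged from 5.99 to 15.7 CPM (median 7.49) against 133 to 147 CPM (median 142), with a log2 difference of -3.90 (SE 0.19, edgeR adjusted p 2.96e-09). The groups were far apart, and replicates 1 and 2 were the highest labelled knockouts, at 13.4 and 15.7 CPM. Plin2, the main perilipin of the fatty hepatocyte, ranged from 450 to 716 CPM (median 496) against 820 to 1103 CPM (median 951), a smaller log2 difference of -0.86 (SE 0.11, edgeR adjusted p 8.69e-05). Clstn3, whose locus also encodes a droplet-associated protein of fat cells, ranged from 8.96 to 13.4 against 44.1 to 62.3 CPM (log2 -2.33, SE 0.12, edgeR adjusted p 2.96e-09). Both FIT proteins, which help droplets bud from the endoplasmic reticulum, fell: Fitm1 by 1.19 and Fitm2 by 0.84 on the log2 scale (edgeR adjusted p 2.81e-06 and 0.000146). The 2 droplet genes that rose did so by less, Aup1 by 0.27 (edgeR adjusted p 0.00285) and Cideb, the hepatocyte member of the CIDE family, by 0.22 (edgeR adjusted p 0.0228), and the call for Cideb was lost without labelled-knockout replicate 5, control replicate 3 or control replicate 6. Plin5, the perilipin that ties droplets to mitochondria, differed by -0.35 (edgeR adjusted p 0.0335), and leaving out any of 7 single libraries removed the call (labelled-knockout replicates 3, 4 and 5, control replicates 1, 2, 3 and 5). The median over the 17 droplet genes was -0.39, beside 0.0002 over all tested genes.

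**Figure D1:**
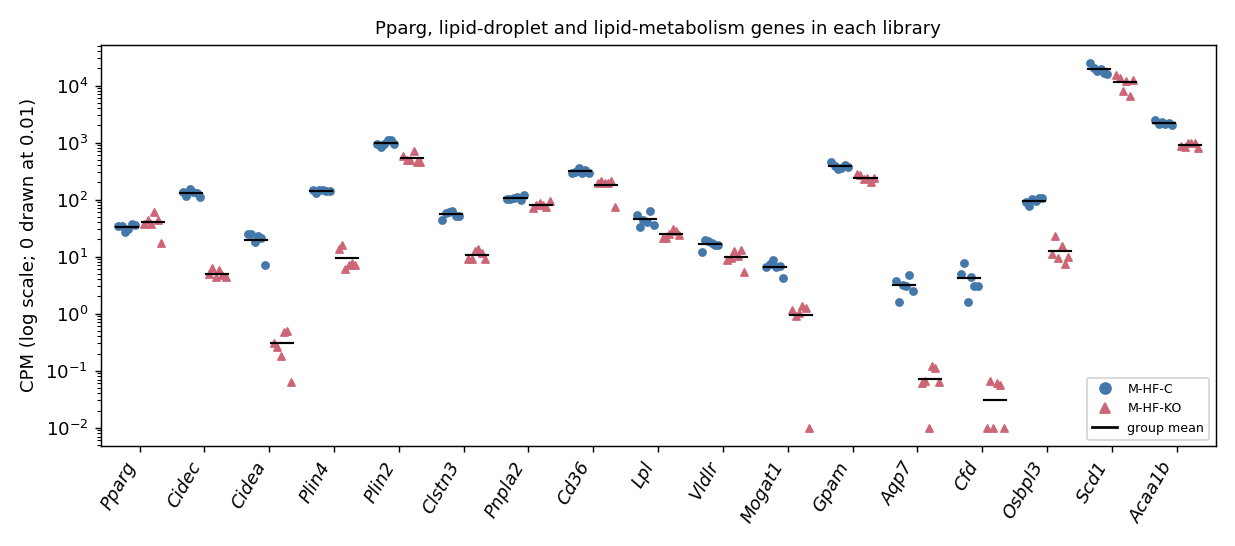
Normalised expression (CPM, log axis) of Pparg and of 16 lipid genes in each of the 12 livers, with blue circles for M-HF-C, red triangles for M-HF-KO and a black line at each group mean. Pparg overlaps between the groups, while the red points for Cidec, Cidea, Plin4, Aqp7 and Osbpl3 lie far below the blue ones; values of 0 are drawn at 0.01.

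Several genes that bring fatty acids into the cell fell by smaller steps. Cd36, a fatty acid translocase and a known PPARγ target, ranged from 74.3 to 209 CPM (median 197) against 289 to 358 CPM (median 297), with a log2 difference of -0.79 (SE 0.18, edgeR adjusted p 0.00653). Of the labelled knockouts, 5 lay between 192 and 209 CPM and replicate 6 at 74.3 CPM. Lpl (lipoprotein lipase) fell by 0.86 (SE 0.14, edgeR adjusted p 0.000691) and the lipoprotein receptor Vldlr by 0.73 (SE 0.17, edgeR adjusted p 0.00709). Of 23 uptake and binding genes, 6 fell and 3 rose, the risers including the hepatic lipase Lipc (log2 0.56, edgeR adjusted p 4.23e-05) and Slc27a5, which activates bile acids and long-chain fatty acids (0.48, edgeR adjusted p 0.0012). Fabp4, a fatty acid carrier of fat cells and macrophages, ranged from 9.11 to 23.3 against 17 to 19.7 CPM and was not called (log2 -0.23, edgeR adjusted p 0.402).

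Triglyceride synthesis had 6 of 18 tested genes lower and 1 higher. Mogat1 (chromosome 1, 78510991 to 78538173, plus strand), which makes diacylglycerol from monoacylglycerol, ranged from 0 to 1.34 CPM (median 1.09) against 4.28 to 8.69 CPM (median 6.64). Its log2 difference was -2.79 (SE 0.33, edgeR adjusted p 4.58e-05), and BC035947, which overlaps its start on the other strand, was lower as well (log2 -3.57). Gpam, the mitochondrial enzyme that starts glycerolipid synthesis, fell by 0.67 (SE 0.08, edgeR adjusted p 6.76e-05), with 205 to 282 CPM in labelled knockouts and 341 to 456 CPM in controls. Gpat3, an acyltransferase of the same step, fell by 0.55, the glycerol-3-phosphate dehydrogenase Gpd1 by 0.60 and the phosphatidate phosphatase Lpin2 by 0.59 (edgeR adjusted p 0.00106, 4.58e-05 and 0.000162). Dgat2, which adds the last acyl chain, measured 781 ± 105 against 649 ± 57.1 CPM (n = 6 each; log2 0.27, edgeR adjusted p 0.0463), a call kept in 4 of the 12 fits that left out 1 library and lost without labelled-knockout replicate 3, 5 or 6 or control replicate 1, 2, 3, 4 or 5. Of 12 lipolysis genes, 6 fell and 1 rose, among the lower Pnpla2 (adipose triglyceride lipase), Mgll and the lysosomal Lipa, by 0.39, 0.40 and 0.38 (edgeR adjusted p 0.0018, 0.00257 and 0.00113).

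Of 12 tested genes known from fat cells, 4 fell and 1 rose, with a median log2 difference of -0.02. Aqp7, a glycerol channel, ranged from 0 to 0.121 CPM (median 0.0643) against 1.57 to 4.84 CPM (median 3.11), with a log2 difference of -5.33 (SE 0.41, edgeR adjusted p 5.32e-07). Cfd, the secreted protease adipsin, was counted 476 times over all controls and 3 times over all labelled knockouts; the control level was 141 times as high (95% exact limits 47.8 and 685, for counting error only) (edgeR adjusted p 1.54e-06). Other markers of the fat cell were not called: Lipe and Adrb3 measured 20.1 ± 0.97 against 22.6 ± 2.97 CPM and 9.31 ± 3 against 7.73 ± 1.08 CPM (n = 6 each; edgeR adjusted p 0.170 and 0.328).

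Promoters of all genes with a window were searched for the DR1, the element that PPAR and RXR bind as a pair. It is a direct repeat of a half-site with 1 base between. The windows run from 250 bases before to 50 after the RefSeq transcription start on GRCm38.p6. Plin2, Mogat1 and Aqp7 each held a stretch within 2 mismatches of AGGTCANAGGTCA on one strand, printed here in capitals to show where it lies in 3 promoters whose genes fell. These 3 are printed because they held such a stretch. Some other genes that fell held one too, and most did not.
Plin2 promoter, chr4:86670010-86670309, minus strand: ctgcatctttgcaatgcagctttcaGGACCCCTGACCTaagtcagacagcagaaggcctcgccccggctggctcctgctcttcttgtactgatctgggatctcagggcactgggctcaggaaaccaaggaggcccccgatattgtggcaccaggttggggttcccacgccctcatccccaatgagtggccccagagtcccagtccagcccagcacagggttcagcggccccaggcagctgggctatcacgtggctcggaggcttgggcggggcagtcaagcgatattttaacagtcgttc
Mogat1 promoter, chr1:78510810-78511109, plus strand: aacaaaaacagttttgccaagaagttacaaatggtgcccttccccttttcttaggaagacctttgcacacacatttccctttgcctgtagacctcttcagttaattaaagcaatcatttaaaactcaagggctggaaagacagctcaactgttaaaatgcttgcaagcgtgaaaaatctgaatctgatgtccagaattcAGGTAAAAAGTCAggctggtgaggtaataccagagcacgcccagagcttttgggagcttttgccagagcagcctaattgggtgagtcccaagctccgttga
Aqp7 promoter, chr4:41048087-41048386, minus strand: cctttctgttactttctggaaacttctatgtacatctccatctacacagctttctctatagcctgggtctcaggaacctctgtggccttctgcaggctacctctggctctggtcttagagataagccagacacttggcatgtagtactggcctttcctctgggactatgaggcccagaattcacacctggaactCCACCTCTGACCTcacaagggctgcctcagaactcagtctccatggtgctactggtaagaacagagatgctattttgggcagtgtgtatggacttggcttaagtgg
In Plin2 and Aqp7 the match lies on the strand opposite to the gene, beginning 225 and 56 bases before the start, and in Mogat1 it lies on the gene's strand, 51 bases before the start. Such a match was present in 41 of 1049 promoters of called lower genes (3.91%), 9 of 167 with a log2 difference of -1 or less (5.39%), 47 of 921 of higher genes (5.10%) and 408 of 10512 of all tested genes with a window (3.88%). Among all 27025 genes with a window it was 4.40%. These are letter matches in a short window and not measured binding. The best stretch had 3 mismatches for Cidec and Fitm1 and 4 for Plin4 and Clstn3, and enhancers lie outside the windows.

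Among the other genes with the largest falls were several with no listed role in lipid storage. Osbpl3, an oxysterol-binding protein that carries lipids between membranes, ranged from 7.31 to 22.8 CPM (median 10.4) against 76.7 to 108 CPM (median 98.0), with a log2 difference of -2.94 (SE 0.21, edgeR adjusted p 2.76e-07). Its relative Osbpl5 fell by 0.93 (edgeR adjusted p 0.00149), and 4 of 9 tested oxysterol-binding proteins fell and 0 rose. Gprc5b, an orphan receptor, ranged from 1.38 to 2.38 CPM against 19.5 to 29.7 CPM (log2 -3.63, SE 0.16, edgeR adjusted p 9.43e-10). Themis, a regulator of T-cell receptor signalling, ranged from 1.13 to 3.55 CPM against 14.3 to 30.6 CPM (log2 -3.25, SE 0.25, edgeR adjusted p 6.95e-07). The epithelial surface protein Ly6d fell by 3.84, the cornified-envelope gene Sprr1a by 3.91, the syntenin relative Sdcbp2 by 4.52 and the adaptor Shc2 by 3.49 (edgeR adjusted p 4.55e-06, 0.000158, 7.05e-06 and 0.000226). Meltf, a transferrin-family protein, had 2 reads in all labelled knockouts against 118 in controls, 52.3 times as much per library size (95% exact limits 14.2 and 437, for counting error only). For these 9 genes the CPM ranges of the groups did not overlap. Apart from Osbpl3 and Osbpl5, this was required by the rule that named them by size of change. Among all called genes, 595 of 1387 lower and 499 of 1204 higher genes had no overlap.

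De novo lipogenesis, the making of fatty acids from acetyl-CoA, had 10 of 20 genes lower and 1 higher, with a median log2 difference of -0.48. Scd1, the desaturase that makes oleate, had the largest fall of any named gene in CPM. It ranged from 6504 to 15556 CPM (median 12133) against 15761 to 24975 CPM (median 18863), with a log2 difference of -0.76 (SE 0.18, edgeR adjusted p 0.00821). The highest labelled knockout, replicate 1, came within 205 CPM of the lowest control. Acacb, the mitochondrial acetyl-CoA carboxylase, fell by 0.84, Me1, which supplies NADPH, by 0.80 and Elovl6, an elongase, by 0.59 (edgeR adjusted p 0.0111, 0.00114 and 0.0147). Fasn, the synthase itself, was not called: 491 to 1068 CPM (median 921) against 719 to 2116 CPM (median 1083), where control replicate 1 was the highest. Of the regulators, 1 was not called and 1 rose. Srebf1 measured 601 ± 111 against 475 ± 76.5 CPM (n = 6 each; log2 0.34, edgeR adjusted p 0.0692) and Nr1h3, the oxysterol receptor LXRα, rose by 0.26 (edgeR adjusted p 0.00613). In cholesterol synthesis 1 of 22 genes was called, Ebp, a sterol isomerase, which rose by 0.47 (edgeR adjusted p 0.000291).

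Fatty acid oxidation and ketogenesis had 12 of 24 genes lower and 0 higher, and the other PPARα targets 6 of 15 lower and 0 higher. Acaa1b, a peroxisomal thiolase, ranged from 787 to 1000 CPM (median 929) against 2027 to 2473 CPM (median 2181), with a log2 difference of -1.28 (SE 0.08, edgeR adjusted p 5.39e-08). Vnn1, a pantetheinase, ranged from 46.2 to 54.6 CPM against 135 to 175 CPM (log2 -1.67, SE 0.07, edgeR adjusted p 5.51e-10). Pex11a, which divides peroxisomes, fell by 1.21, Aldh3a2, a fatty aldehyde dehydrogenase, by 0.88 and the carnitine acetyltransferase Crat by 0.63 (edgeR adjusted p 3.41e-07, 1.03e-06 and 0.000114). Pdk4, which blocks pyruvate oxidation, fell by 1.84 and the mitochondrial thioesterase Acot2 by 1.45 (edgeR adjusted p 0.000241 and 4.59e-05). The mitochondrial gate Cpt1a fell by only 0.35 (edgeR adjusted p 0.00306). Cyp4a14, a fatty acid hydroxylase, differed by -0.79 with an edgeR adjusted p of 0.0535. Of 26 oxidative phosphorylation genes 0 were called in the edgeR fit and 1, lower, by DESeq2's Wald test, and their median was 0.01.

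**Figure D2:**
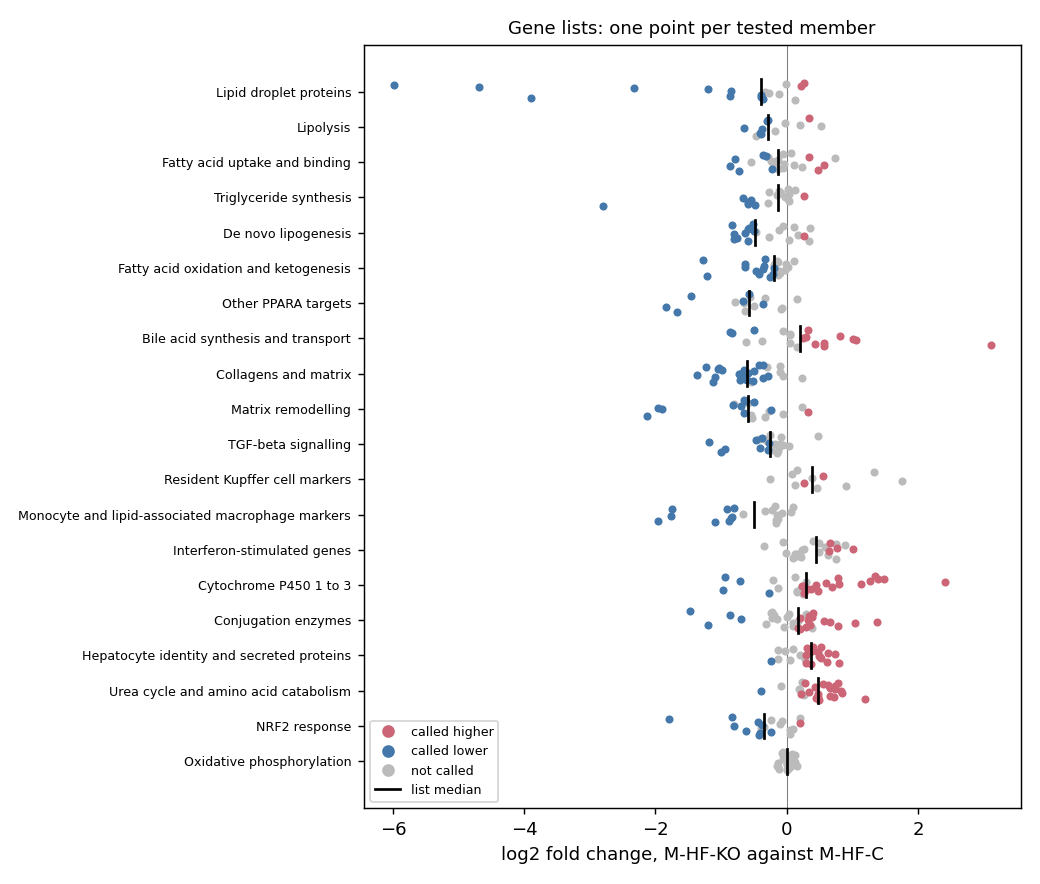
Log2 fold change, M-HF-KO against M-HF-C, of each tested member of 20 gene lists, 1 point per gene, red where called higher, blue where called lower and grey where not called, with a black bar at the list median. The medians of the droplet, lipogenic, PPARα, matrix and monocyte-macrophage lists lie left of 0, those of the hepatocyte, amino acid, P450 and Kupffer cell lists right of it, and oxidative phosphorylation centres on 0.

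Hepatocyte-secreted proteins and amino acid catabolism rose by small steps in many genes. Of 23 tested hepatocyte identity and secreted-protein genes, 15 rose and 1 fell, and of 25 urea cycle and amino acid genes, 19 rose and 1 fell, with medians of 0.37 and 0.48. Alb (albumin) ranged from 65318 to 77841 CPM (median 75717) against 45299 to 63644 CPM (median 57207), a log2 difference of 0.40 (SE 0.10, edgeR adjusted p 0.0113). Ahsg, the carrier protein fetuin-A, rose by 0.53, the fibrinogen chains Fga and Fgb by 0.49 and 0.50, complement C3 by 0.53 and the plasma esterase Ces1c by 0.74 (edgeR adjusted p 0.000162, 0.00799, 0.00872, 0.00409 and 2.91e-05). Serpina1d, 1 of several near-identical α1-antitrypsin genes that share reads, rose by 0.75. Tat, which starts tyrosine breakdown, ranged from 480 to 1252 CPM (median 1002) against 227 to 623 CPM (median 391), with a log2 difference of 1.2 (SE 0.22, edgeR adjusted p 0.00155); the lowest labelled knockout was replicate 4. The next enzyme of that pathway, Hpd, rose by 0.85, the histidine lyase Hal by 0.83 and Agxt, which detoxifies glyoxylate, by 0.78 (edgeR adjusted p 0.000285, 0.00375 and 6.08e-05). Cps1 and Ass1 of the urea cycle rose by 0.73 and 0.63 (edgeR adjusted p 0.00186 and 0.00376). Gpt2, the mitochondrial alanine aminotransferase, fell by 0.39 (edgeR adjusted p 0.00462). Apoa4, an apolipoprotein that is raised in fatty liver, also fell, with 297 to 966 CPM against 1002 to 1643 CPM (log2 -1.25, SE 0.25, edgeR adjusted p 0.00281). Pcx, the pyruvate carboxylase that feeds gluconeogenesis, fell by 0.59 (edgeR adjusted p 2.37e-05), while Pck1 of the same pathway ranged from 819 to 2007 against 722 to 1668 CPM and was not called (edgeR adjusted p 0.143). Ppp1r3c, a glycogen-targeting subunit, rose by 0.76 (edgeR adjusted p 0.00269).

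Of 20 tested bile acid genes, 10 rose and 3 fell. Cyp7a1, the rate-limiting enzyme of the classic route, ranged from 86.5 to 205 CPM (median 164) against 44.9 to 109 CPM (median 79.9), a log2 difference of 1.01 (SE 0.22, edgeR adjusted p 0.00459). Cyp7b1 of the alternative route and the reductase Akr1d1 rose by 1.06 and 0.81 (edgeR adjusted p 0.00155 and 3.4e-05). Cyp8b1, which sets the share of cholic acid, was not called (log2 -0.38, edgeR adjusted p 0.104). The uptake carriers Slc10a1 and Slco1a4 rose by 0.43 and 0.57 (edgeR adjusted p 0.0112 and 0.00533). The basolateral pumps Abcc3 and Abcc4, which are known to rise in cholestasis, fell by 0.87 and 0.83, and the canalicular phospholipid pump Abcb4 by 0.50 (edgeR adjusted p 1.83e-05, 0.0066 and 6.98e-05).

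Drug-metabolising P450 genes mostly rose: 17 of 29 were higher and 4 lower, with 2 lower without labelled-knockout replicate 1 or 5 or control replicate 3. Cyp2c29 ranged from 708 to 1024 CPM (median 838) against 225 to 528 CPM (median 291), a log2 difference of 1.39 (SE 0.16, edgeR adjusted p 4.33e-05). Cyp2c54, Cyp2c37 and Cyp2c50 rose by 2.41, 1.49 and 1.26 (edgeR adjusted p 0.000414, 0.000104 and 3.22e-05), although these close paralogs share reads and their separate values are uncertain. Cyp1a2 rose by 1.34 (edgeR adjusted p 3.22e-05). Cyp3a11, the main mouse CYP3A enzyme, went the other way, from a median of 1568 CPM (at most 1740) in controls to 818 CPM (427 to 986) in labelled knockouts. The log2 difference was -0.97 (SE 0.16, edgeR adjusted p 0.000654), and the groups did not overlap, as the rule that named it required. Conjugation enzymes had 14 of 32 members higher and 4 lower, with 9 higher without labelled-knockout replicate 5 or control replicate 1, 5 or 6; the sulfotransferase Sult2a8 rose by 1.37 and the glucuronosyltransferase Ugt2a3 by 0.78 (edgeR adjusted p 0.000158 and 8.77e-05), while Ugt1a9, which shares its last exons with the other Ugt1a genes, fell by 1.2 (edgeR adjusted p 0.00175).

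Several genes that differ between the sexes in mouse liver, which growth hormone controls, varied widely within the labelled knockouts. Slco1a1, a male-biased organic anion carrier, stood at 44.7, 25.9, 83.7, 43.4, 59.2 and 561 CPM in labelled knockouts 1 to 6 and from 11 to 24.3 CPM in controls. Every labelled knockout was above every control, as the rule that named the gene required, but replicate 6 carried most of the mean. The log2 difference was 3.11 (SE 0.66, edgeR adjusted p 0.00399) with replicate 6 and 1.71 (edgeR adjusted p 0.00033) without it. Mup7, a male-biased urinary protein gene of a near-identical family, stood at 1.54, 2.24, 15.6, 1.03, 30.6 and 185 CPM against 0.80 to 3.29 CPM; its log2 difference of 4.57 was 2.65 without replicate 6 (edgeR adjusted p 0.00922 and 0.0187). Mup3, of the same family, ranged from 3168 to 6324 CPM against 1329 to 2398 CPM (log2 1.25, SE 0.17, edgeR adjusted p 0.000146). For female-biased Cyp2b13 replicate 6 was the lowest, at 1.13 CPM, and the other 5 had 50.4 to 152 CPM, against 3.67 to 27.1 CPM in controls (log2 2.13, SE 0.62, edgeR adjusted p 0.0258; 2.39 and 0.000657 without replicate 6). The call for Cyp2b13 was lost without labelled-knockout replicate 3 or 5 or control replicate 1 or 6. Slc22a26, also female-biased, rose by 2.03 (edgeR adjusted p 0.00501), and Cyp2b9 was not called (log2 0.32, edgeR adjusted p 0.318). In counts, 6 of 18 tested male-biased genes rose and 0 fell, and 2 of 14 female-biased genes rose and 3 fell; without replicate 6, 2 male-biased genes were called lower and 3 female-biased genes higher. Of the growth hormone axis, 6 of 19 rose and 2 fell. Prlr, the prolactin receptor, rose by 1.13 and Igfals, which stabilises IGF1 in blood, by 0.92 (edgeR adjusted p 3.06e-05 and 3.56e-05). Igf1 rose by 0.40 and the receptor Ghr by 0.29 (edgeR adjusted p 0.00931 and 0.00989). Stat5a, 1 of the signal transducers below the receptor, fell by 0.52 (edgeR adjusted p 0.00268).

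**Figure D3:**
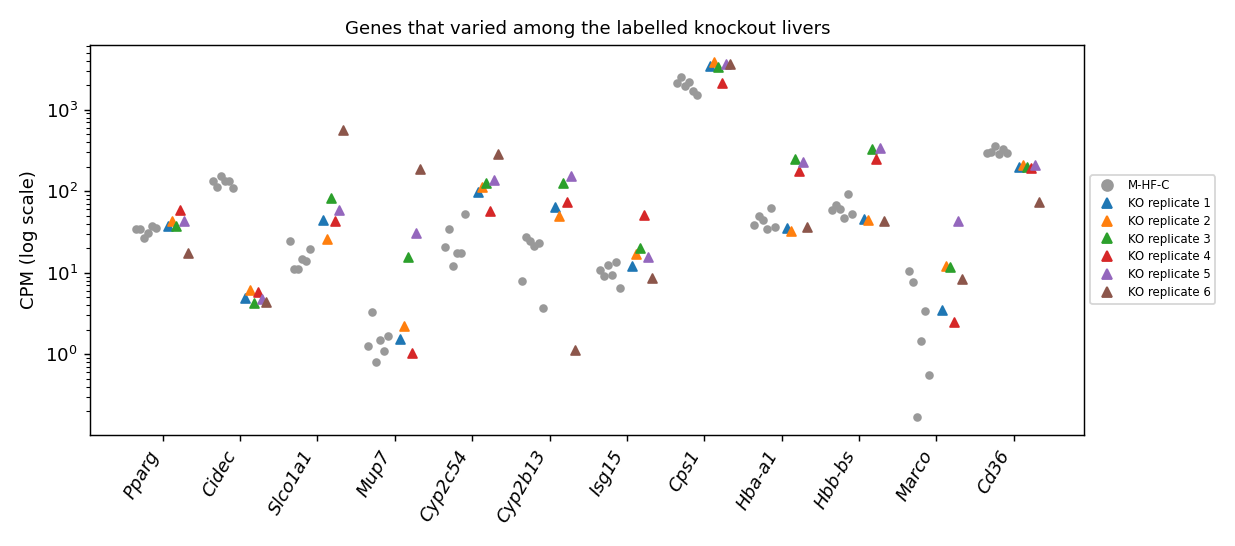
Normalised expression (CPM, log axis) of 12 genes in the 6 controls (grey circles) and in each labelled knockout (coloured triangles, 1 colour per replicate). Replicate 6 is highest for Slco1a1 (561) and Mup7 (185) and lowest for Cyp2b13 (1.13), Pparg (17.4) and Cd36 (74.3), replicate 4 is highest for Isg15 (50.7), and replicates 3, 4 and 5 are high for both haemoglobin genes, whereas all 6 are alike for Cidec.

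Several of the genes with the largest rises are little known in this setting. Chic1, a cysteine-rich membrane protein, ranged from 3.52 to 6.70 CPM against 0.794 to 1.57 CPM (log2 2, SE 0.20, edgeR adjusted p 7.68e-06). Lrtm1, which lies inside Cacna2d3, ranged from 17.9 to 44.4 CPM against 2.33 to 11.3 CPM (log2 2.25, SE 0.31, edgeR adjusted p 0.000152). Slc22a7, an organic anion carrier, rose by 1.70, the retinol dehydrogenase relative Rdh16f2 by 1.69 and Cyp26b1, which breaks down retinoic acid, by 1.48 (edgeR adjusted p 6.98e-05, 3.15e-07 and 0.00164). Enho, which encodes the secreted peptide adropin, ranged from 6.54 to 16.0 CPM against 2.22 to 6.28 CPM (log2 1.62, SE 0.26, edgeR adjusted p 0.000508). The kinase Ptk6, the G-protein subunit Gna14 and the scaffold Dlgap1 rose by 1.43, 1.42 and 1.5 (edgeR adjusted p 4.58e-05, 4.66e-05 and 0.00695), and for Dlgap1 replicate 6 was at 6.14 CPM with the other 5 at 2.05 to 2.43 CPM.

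Collagen and matrix genes, products mainly of stellate cells and other fibroblasts, were lower in the labelled knockouts. Of 27 tested, 21 fell and 0 rose, with a median log2 difference of -0.60. Col1a1, the fibrillar collagen most used as a readout of fibrosis, ranged from 18.8 to 44.5 CPM (median 38.3) against 49.8 to 107 CPM (median 82.1), a log2 difference of -1.23 (SE 0.21, edgeR adjusted p 0.000725). Its lowest values were in labelled-knockout replicates 5 and 6, and the lowest control, replicate 2, was the closest to the other group. Col3a1 ranged from 51.0 to 81.6 CPM against 102 to 187 CPM (log2 -1.05, SE 0.15, edgeR adjusted p 0.000207). Col1a2, the basement membrane collagen Col4a1, the microfibril gene Fbn1 and the matricellular Thbs1 fell by 1.03, 0.99, 1.10 and 1.12 (edgeR adjusted p 0.00073, 2.37e-05, 9.52e-05 and 0.000158), and Col8a1 by 1.36 (edgeR adjusted p 0.00918). Fn1, which hepatocytes also secrete, was not called (log2 0.24, edgeR adjusted p 0.0800). Of 19 remodelling genes, 10 fell and 1 rose. The inhibitor Timp1 ranged from 0.0626 to 1.03 CPM against 1.48 to 2.91 CPM (log2 -2.13, SE 0.34, edgeR adjusted p 0.000525), the macrophage elastase Mmp12 fell by 1.97, the collagenase Mmp13 by 1.91 and the cross-linker Loxl2 by 0.69 (edgeR adjusted p 0.000792, 0.00626 and 0.00208), and Mmp19 rose by 0.32 (edgeR adjusted p 0.0117).

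Of 15 tested markers of the stellate cell, 3 fell and 1 rose (5 fell without control replicate 2), and their sum ranged from 316.3 to 427.7 CPM in labelled knockouts and from 347.5 to 498.5 CPM in controls. The platelet-derived growth factor receptor Pdgfrb, Reln and Cygb fell by 0.50, 0.45 and 0.42 (edgeR adjusted p 0.00918, 0.016 and 0.0109), and Hhip, which restrains hedgehog signals, rose by 1.48 (edgeR adjusted p 0.017). In TGF-β signalling, the main fibrogenic pathway, 8 of 22 genes fell and 0 rose, and 5 fell without labelled-knockout replicate 5 or control replicate 3 or 6. The receptor Tgfbr2 ranged from 29.1 to 44.5 CPM (median 36.1) against 52.2 to 81.4 CPM (median 76.7), a log2 difference of -1 (SE 0.11, edgeR adjusted p 2.13e-05). The ligand Tgfb2 fell by 0.94 (edgeR adjusted p 0.0129). Tgfb1 differed by -0.40 (edgeR adjusted p 0.0279), a call lost without labelled-knockout replicate 1 or 2 or control replicate 3 or 6. In the same libraries 9 of 11 tested hepatocyte markers rose; their part in these differences was not tested.

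Of 20 monocyte and lipid-associated macrophage markers, 9 fell and 0 rose, with sums of 353.5 to 480 CPM against 459.9 to 662.9 CPM, and of 11 resident Kupffer cell markers 2 rose and 0 fell, with sums of 657.2 to 934 CPM against 548.9 to 786.2 CPM. Gpnmb, a glycoprotein of lipid-laden macrophages, ranged from 1.25 to 6.27 CPM (median 3.77) against 7.27 to 18.0 CPM (median 12.1), a log2 difference of -1.76 (SE 0.28, edgeR adjusted p 0.000417). Trem2, their lipid receptor, Spp1 (osteopontin), Lgals3 (galectin-3) and the tetraspanin Cd63 fell by 1.09, 0.88, 0.85 and 1.75 (edgeR adjusted p 0.0119, 0.0153, 0.00385 and 0.000592). The Kupffer cell lectin Clec4f measured 125 ± 25.5 against 85.0 ± 23.6 CPM (n = 6 each; log2 0.56, edgeR adjusted p 0.0412), and that call was kept in 4 of 12 fits that left out 1 library; it was lost without labelled-knockout replicate 1, 2, 3, 5 or 6 or control replicate 3, 4 or 6. Cd163 and Marco, scavenger receptors of resident cells, varied widely in both groups, 3.88 to 41.5 against 1.37 to 17 CPM and 2.49 to 42.9 against 0.171 to 10.4 CPM, and were not called (edgeR adjusted p 0.0956 and 0.103). Of 21 chemokine and cytokine genes, 6 fell and 2 rose. In this list 3 fell without labelled-knockout replicate 1, 2 or 5 or control replicate 1, and 2 without control replicate 3. The list's sum was higher in labelled knockouts, at 574 to 648.5 CPM (median 606.3) against 467 to 587.8 CPM (median 485.6). The monocyte attractant Ccl2 fell by 1.2 and Ccl22 by 1.53 (edgeR adjusted p 0.00498 and 0.00283), and Cxcl12 and Il18 rose by 0.43 and 0.67 (edgeR adjusted p 0.000755 and 0.00136).

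**Figure D4:**
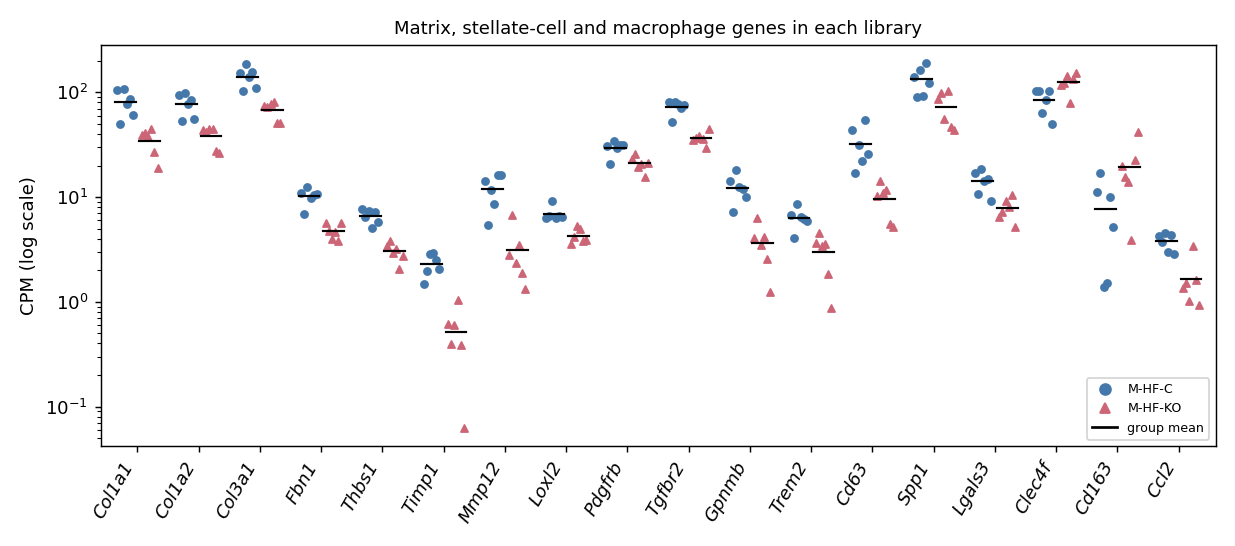
Normalised expression (CPM, log axis) of matrix, stellate-cell and macrophage genes in each liver, with blue circles for M-HF-C, red triangles for M-HF-KO and a black line at each group mean. The groups do not overlap for Col1a1, Col3a1, Tgfbr2, Gpnmb and Timp1, whereas Clec4f and Cd163 overlap and have higher means in M-HF-KO.

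The membrane-binding annexins Anxa2 and Anxa5 fell by 1.55 and 1.14 (edgeR adjusted p 6.94e-05 and 0.000146), with 11.8 to 38.5 against 60.1 to 98.1 CPM for Anxa2. Cdkn1a, the cell-cycle inhibitor p21, ranged from 3.70 to 8.74 CPM against 8.83 to 25 CPM (log2 -1.5, SE 0.26, edgeR adjusted p 0.000802). Of 19 NRF2 response genes, 9 fell and 1 rose, among them Cbr3 by 1.79 and Srxn1 by 0.62 (edgeR adjusted p 0.0016 and 0.002). In the stress-response list, 4 of 21 fell and 2 rose, beside 9.88% lower and 8.57% higher over all tested genes. The stress transcription factor Atf3 and the pseudokinase Trib3 fell by 1.37 and 0.68 (edgeR adjusted p 0.000324 and 0.00958), and the chaperone cofactor Sdf2l1 rose by 0.61 (edgeR adjusted p 0.0135). Without labelled-knockout replicate 6, 7 stress-list genes were called higher and 3 lower. The clock repressors Nr1d1 and Nfil3 rose by 0.36 and 0.57 (edgeR adjusted p 0.0142 and 0.000919), 2 of 3 risers among 19 clock genes with 0 fallers.

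Many calls among interferon, lymphoid and blood genes depended on single libraries. Those of Ifi27 and Alas2 were kept in all 12 fits that left out 1 library. Of 22 interferon-stimulated genes, 4 rose and 0 fell; 2 were called higher without labelled-knockout replicate 2, 3 or 4 or control replicate 1, 2 or 5, 1 without control replicate 6, 11 without labelled-knockout replicate 6 and 9 without labelled-knockout replicates 4 and 6. Isg15, a ubiquitin-like antiviral protein, stood at 12.1, 16.9, 20.2, 50.7, 15.7 and 8.52 CPM in labelled knockouts 1 to 6 against 6.45 to 13.4 CPM in controls (log2 1.01, SE 0.34, edgeR adjusted p 0.0463). Its log2 difference was 0.52 without replicate 4 (edgeR adjusted p 0.0864), and the call was kept only without labelled-knockout replicate 1 or 6. Irf7, which amplifies interferon, and Ifi27 rose by 0.77 and 0.66 (edgeR adjusted p 0.0252 and 0.0133); Irf7 was lost without control replicate 6 and fell to 0.51 without labelled-knockout replicate 4. Of 19 MHC class II and lymphocyte genes 1 fell and 1 rose, and 6 were called lower without replicate 4. Of 20 cell-cycle genes 2 fell, and 8 without replicate 4. Over all tested genes 9.88% were called lower, so the main counts of both lists are near or below that share. Of 21 sinusoidal endothelium genes 3 fell, beside the same 9.88% of all tested genes, among them the lymphatic receptor Flt4 by 0.58 (edgeR adjusted p 0.017). In this list 1 gene fell without labelled-knockout replicate 2, 4 or 5 or control replicate 3, 5 or 6, and 5 without labelled-knockout replicate 3. The haemoglobin gene Hba-a1 stood at 35.9, 32.9, 252, 177, 231 and 36.7 CPM in labelled knockouts against 34.1 to 63.2 CPM in controls, and Hbb-bs at 45.7, 45.0, 328, 252, 341 and 43.5 CPM against 46.6 to 91.6 CPM. Replicates 3, 4 and 5 were thus high and the other 3 were within or below the control range. Both were called (log2 1.52 and 1.48, edgeR adjusted p 0.0338 and 0.0455), and both calls were lost without any of those 3 libraries or without control replicate 1, 3, 4 or 6, that of Hbb-bs also without control replicate 2 or 5. The haem-synthesis gene Alas2 rose by 0.55 (edgeR adjusted p 0.00206). The blood list summed to 158.5 to 791.9 CPM in labelled knockouts and 161.2 to 240.4 CPM in controls, and its part in the other differences was not tested.

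The same contrast was available in males that switched to the HFCF diet, which adds cholesterol and fructose to the fat, for the last 16 weeks after 18 weeks of HF diet, 6 labelled knockouts (M-N-KO) and 6 controls (M-N-C) from other mice. An interaction fit on the 24 male livers called 235 of 15096 genes (1.56%), 149 with a more negative and 86 with a more positive difference on the HF diet. Of 17 droplet genes, 10 fell on HF and 7 on HFCF. The share of all genes called on HFCF is not given here, so these counts do not compare the diets. The interaction was called for 4 of the 17, beside 1.56% of all genes. Cidec differed by -4.68 on HF and -2.57 on HFCF (interaction -2.10, SE 0.28, edgeR adjusted p 0.000236) and Plin4 by -3.90 and -2.89 (interaction -0.99, edgeR adjusted p 0.0393). Clstn3 differed by -2.33 and -1.18 (interaction -1.14, edgeR adjusted p 0.00361) and Aup1 by 0.27 and -0.03 (interaction 0.31, edgeR adjusted p 0.029). Fitm1 differed by -1.19 and -1.30 (interaction 0.12, edgeR adjusted p 0.825) and Cidea by -5.99 and -5.44 (interaction -0.54, edgeR adjusted p 0.725). Osbpl3 differed by -2.94 on HF and -0.31 on HFCF (interaction -2.61, SE 0.26, edgeR adjusted p 2.4e-06), and Aqp7 by -5.33 and -1.54 (interaction -3.78, edgeR adjusted p 0.00742). Gpam and Vldlr had opposite signs, -0.67 and -0.73 on HF against 0.41 and 0.34 on HFCF (interactions -1.07 and -1.05, edgeR adjusted p 0.0255 and 0.0289), and the HFCF differences were not called (edgeR adjusted p 0.413 and 0.351). Tgfbr2 differed by -1 on HF and -0.04 on HFCF (interaction -0.94, SE 0.13, edgeR adjusted p 0.000236), Mmp12 by -1.97 and -0.12 and Acot2 by -1.45 and 0.00 (interactions -1.83 and -1.44, edgeR adjusted p 0.0289 and 0.00217). Enho, the adropin gene, differed by 1.62 on HF and -0.63 on HFCF (interaction 2.28, edgeR adjusted p 0.0137). Cela1, an elastase, differed by 1.18 and -0.76 (interaction 1.96, edgeR adjusted p 0.000236). On HF, Cela1 was the 1 tested gene of 11 pancreas markers, of which 8 had no reads. Those markers summed to 19.74 to 47.98 CPM in HF labelled knockouts and 10.86 to 16.99 CPM in HF controls. A part of pancreas tissue in the Cela1 difference was not tested. The count moved with single libraries, from 123 without M-HF-C replicate 3 to 412 without M-HF-C replicate 2. The 2 diets were given to mice of different animal numbers, which cannot be told apart from diet in this contrast.

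**Figure D5:**
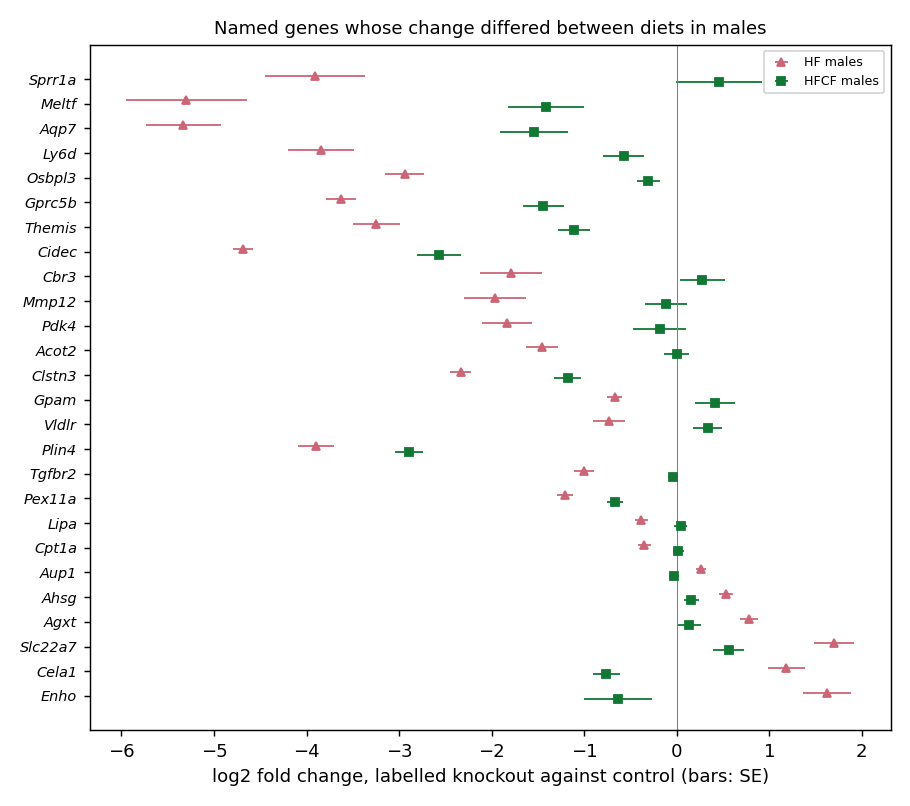
Log2 fold change of the labelled knockout against its control in HF males (red triangles) and HFCF males (green squares), with bars of 1 SE, for the named genes with a called interaction. Osbpl3, Tgfbr2, Acot2 and Mmp12 lie near 0 on HFCF and well below 0 on HF, and Enho and Cela1 lie on opposite sides of 0.

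Against females on the same HF diet, 4 labelled knockouts and 4 controls, the interaction fit on 20 livers called 0 of 15024 genes (0%) with edgeR, beside 1589 at an unadjusted p under 0.05 and 46 called by DESeq2's Wald test. Without F-HF-C replicate 1 the edgeR count was 287, and without any other single library it was 0 to 4. In females Cidec differed by -2.56 (SE 0.67), Plin4 by -3.08 (SE 0.43), Mogat1 by -2.04 (SE 0.52) and Acaa1b by -0.55 (SE 0.14). None of these female differences was called (edgeR adjusted p 0.522, 0.321, 0.522 and 0.514). In males the differences were -4.68, -3.90, -2.79 and -1.28 (interactions -2.10, -0.81, -0.74 and -0.72, edgeR adjusted p 0.319, 0.520, 0.703 and 0.174). Scd1 differed by -0.76 in males and 0.66 (SE 0.69, edgeR adjusted p 0.838) in females (interaction -1.42, edgeR adjusted p 0.463). These p values do not show that the sexes respond alike.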

How the data were processed

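Whole-liver RNA-seq of 12 M-HF livers was analysed, with 12 M-N and 8 F-HF livers for the interaction tests. The submitters' processing notes name STAR 2.6.1, HTSeq 0.6.1, DESeq2 and the build GRCm38 (mm10) without giving their roles. Libraries were not strand specific, per the labels' protocols. The deposited values used are raw read counts per gene, per the file headers; the FPKM values the authors deposited beside them were used for no test. Samples were grouped by title. No column of per-sample values lacked a sample.

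Counts were fitted with edgeR 4.0.16 in R 4.3.3: filterByExpr, TMM scaling and the quasi-likelihood F test on the groups compared, with Benjamini-Hochberg adjustment over all genes tested and calls at an adjusted p under 0.05. CPM used TMM-scaled library sizes. The SE is the log2 difference divided by the square root of F. Genes were named by rule: Pparg; among called protein-coding genes with a symbol not of a predicted gene, a mean of at least 1 CPM in the higher group and no overlap between the groups, the 12 largest log2 differences and the 8 largest differences in mean CPM in each direction; and list members, the called ones with the largest log2 differences and those at the head of a pathway. The lists and the comparison were chosen with earlier results of these data known. The labels give each liver its own animal number. Replicate numbers were not taken as pairs: of 6 same-number correlations, 2 were the highest for their number. Replicate numbers join adjacent animal numbers only in part, and pairs of adjacent animal numbers were not tested. No pair of libraries was a duplicate. In simulated counts with 100 genes changed 2-fold and 100 changed 1.5-fold among 13875 genes, 90% and 73% were recovered for M-HF-KO against M-HF-C. Of the unchanged genes, 8 were called. The changed genes were drawn above a minimum mean count, so the recovery does not cover genes with few reads. Alternatives were DESeq2 1.42.0 size factors and Wald test, other filters, a size threshold, 1 fit of all 4 male groups, blocks and leaving out libraries. Promoter windows came from RefSeq on GRCm38.p6 and were matched by symbol.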

Additional observations from a re-analysis of the deposited data

Results flagged for a closer look

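In groups of 6, a liver was taken as standing apart where its gap to the nearest other liver of its group, divided by the group's range, exceeded Dixon's 95% limit. Chance alone marks about 1 in 20 groups, and both groups were examined for 164 genes. M-HF-C replicate 1 stood apart for Acacb at 354 CPM, Fasn at 2116 CPM and Igfals at 51.9 CPM. M-HF-C replicate 2 stood apart for Lipc at 106 CPM, Mup7 at 3.29 CPM, Tgfbr2 at 52.2 CPM and Il18 at 11 CPM. M-HF-C replicate 3 stood apart for Aldh3a2 at 1143 CPM and Loxl2 at 9.2 CPM. M-HF-C replicate 4 stood apart for Srebf1 at 620 CPM. M-HF-C replicate 6 stood apart for Cidea at 7.23 CPM. M-HF-KO replicate 1 stood apart for Meltf at 0.123 CPM. M-HF-KO replicate 2 stood apart for Sprr1a at 1.52 CPM. M-HF-KO replicate 4 stood apart for Serpina1d at 1956 CPM, Cps1 at 2122 CPM, Mmp13 at 2.06 CPM, Ccl2 at 3.4 CPM, Isg15 at 50.7 CPM, Cbr3 at 3.52 CPM and Srxn1 at 81 CPM. M-HF-KO replicate 5 stood apart for Marco at 42.9 CPM. M-HF-KO replicate 6 stood apart for Fitm2 at 84.2 CPM, Cd36 at 74.3 CPM, Mogat1 at 0 CPM, Slco1a1 at 561 CPM, Cyp2c54 at 289 CPM, Mup7 at 185 CPM, Reln at 129 CPM and Dlgap1 at 6.14 CPM. 

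The difference between labelled knockout and control itself differed between HF and HFCF males, by the edgeR interaction test, for 26 named genes. On the log2 scale, HF minus HFCF, it was lower on the HF diet for Cidec (-2.1), Gprc5b (-2.18), Clstn3 (-1.14), Plin4 (-0.986), Themis (-2.12), Pex11a (-0.524), Osbpl3 (-2.61), Aqp7 (-3.78), Ly6d (-3.25), Tgfbr2 (-0.942), Acot2 (-1.44), Gpam (-1.07), Meltf (-3.89), Pdk4 (-1.63), Lipa (-0.405), Cbr3 (-2.05), Sprr1a (-4.35), Mmp12 (-1.83), Cpt1a (-0.35) and Vldlr (-1.05). It was higher on the HF diet for Ahsg (0.39), Agxt (0.661), Slc22a7 (1.16), Enho (2.28), Cela1 (1.96) and Aup1 (0.313). No cause was tested for these patterns.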

How the results depend on the processing

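The count of 2591 genes called in M-HF-KO against M-HF-C was 2340 with the replicate block, 2401 with the range of animal numbers as a block, 2979 with DESeq2's Wald test, 334 with an absolute log2 difference of at least 1, and 1988 to 2778 when 1 library was left out; the share of lower genes among calls ran from 49.5 to 56.6% apart from the size threshold, where it was 70.4%. Leaving out labelled-knockout replicates 4 and 6 together, an alternative chosen after seeing the data, gave 2625. Of 150 called genes named in the text, 139 kept the call in all 12 fits that left out 1 library, the exceptions being named with their results. In all other alternatives tried apart from the size threshold, 137 kept it. Elovl6, Slc10a1, Mup7, Cygb and Tgfb2 kept the call in those 12 fits but each lost it in 1 other alternative. For Tgfb2 this was the fit without labelled-knockout replicates 4 and 6 (edgeR adjusted p 0.056). The sign reversed for 0 named genes. Pparg differed by 0.20 on the log2 scale with the replicate block, by 0.11 to 0.41 when 1 library was left out, and by 0.28 without both replicates (edgeR adjusted p 0.0351). The main fit did not take replicate numbers as pairs. The HFCF interaction count of 235 was 610 with DESeq2's Wald test, 75 with the size threshold and 123 to 412 when 1 library was left out (131 and 124 without M-HF-KO replicates 3 and 5, 155 without M-HF-C replicate 5, 139 and 126 without M-N-KO replicates 1 and 3, 138 without M-N-C replicate 3). The sex interaction count of 0 was 46 with the Wald test and 0 to 287 when 1 library was left out. The causes of these moves were not tested. Leaving out libraries of the M-N and F-HF groups was also chosen after seeing the data. Genes with few reads, such as Cfd and Meltf, give a direction more firmly than a size.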
